A study of Mus musculus with 32 samples.

Results

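The NF-kB system was followed through tendon assembloids by 10 genes. Of these 3 encode subunits of the transcription factor (Nfkb1, Nfkb2 and Relb) and 3 are direct targets (Birc3, Traf1 and Icam1). The other 4 are grouped here as inhibitors (Nfkbia, Nfkbie, Nfkbiz and Tnfaip3), though Nfkbiz acts in the nucleus and directs NF-kB to secondary genes. The 10 genes were taken by name from the 25700 genes counted in each of 32 RNA-seq samples, and all 10 passed the filter on low counts in every comparison. An assembloid is a mouse tail tendon fascicle (the core explant) clamped inside a collagen hydrogel and cultured for 7 days. Its core and its hydrogel were sequenced apart. The hydrogel groups held cells around a core labelled KO (genotype Il-6-/-, B6.129S2-Il6tm1Kopf/J, n = 6) or a WT core (Il-6+/+, n = 6). The core groups were cores labelled KO beside fibroblasts and beside cell-free hydrogels, and WT cores beside macrophages, beside fibroblasts and beside cell-free hydrogels (n = 4 each). The fibroblasts, which the sample labels call tendon progenitors, came from WT Achilles tendons of several mixed mice in every group, so a hydrogel differed in genotype only through the core it surrounded and the cells that left that core. Each core sample was a pool of explants from a single mouse.

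NF-kB is a family of dimeric transcription factors that wait in the cytoplasm, bound by inhibitors of the I-kappa-B family, until signals from receptors for TNF, IL-1 or microbial products destroy the inhibitor. The freed dimer enters the nucleus and switches on cytokines, adhesion molecules and survival genes, and among its targets are the genes of its own subunits and inhibitors, which end the response. In tendon, as in other tissues, the pathway is known for carrying inflammatory signals between resident fibroblasts and macrophages, and Il6 is among its classical targets.

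The libraries held 20.4 to 59.9 M counts each, so that even Traf1 in the sample with its lowest value rested on 65 counts and the other 9 genes on 463 or more. Levels are given as CPM, counts relative to library size with TMM scaling over all 32 samples. Because CPM does not correct for gene length, levels are compared between samples and not between genes. Il6, the targeted gene, was counted in every library labelled KO. Its level was 10.5, 15.3, 17.1 and 37.1 CPM in the cores labelled KO beside fibroblasts, against 6.18, 11.8, 4.96 and 9.31 CPM in WT cores beside fibroblasts. In cell-free cores it was 6.79, 8.71, 6.51 and 20.5 CPM in the libraries labelled KO and 7.25, 1.90, 11.7 and 3.88 CPM in WT. The label was therefore not borne out by a loss of Il6 counts, and since counts are per gene, reads of a disrupted transcript cannot be told from those of an intact one. The paper also measured IL-6 protein in supernatants of cell-free WT and KO cores. It describes the IL-6 levels of assembloids with a KO core as reduced. Protein was not measured in the samples used here. Every direction between genotypes below rests on the label.

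The cores and hydrogels are labelled as tenocytes and tendon progenitors, and the 14 fibroblast and tendon markers were all counted in every group. All 20 macrophage and leukocyte markers were counted in every group as well, with a summed level of 2482 to 36490 CPM in hydrogels around cores labelled KO, 11300 to 21380 CPM in hydrogels around WT cores and 6363 to 21380 CPM over the cores. Within the cores, the sums of both groups beside fibroblasts (9730 to 11460 CPM in cores labelled KO and 10520 to 11320 CPM in WT cores) lay below those of WT cell-free cores (11810 to 16260 CPM), while WT cores beside macrophages (6363 to 14290 CPM) and cell-free cores labelled KO (7390 to 21380 CPM) overlapped them. In such mixed samples, fewer cells of a type and less RNA per cell cannot be told apart. Of the 10 neutrophil and mast cell markers, 6 were at 0 in every hydrogel sample, S100a9 and Ly6g among them.

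NF-kB is known to act on the genes of its own inhibitors, so promoter windows are shown for genes that carry its motif and for a gene without it. A window in the RefSeq promoter table (GRCm38.p6) was matched for 7 of the 10 genes, all but Nfkb1, Relb and Nfkbiz. The 250 bases before each annotated start were searched on both strands for the kappaB consensus, the sequence family that NF-kB dimers bind. A match stood in a window of 4 of the 7 genes with one (Nfkb2, Nfkbia, Nfkbie and Tnfaip3), against 8.23% of all 27025 genes in the table. A match is a run of letters and not evidence of binding. The windows below, 5′ to 3′ with the matched bases in capitals, are those of the subunit gene and the 3 inhibitor genes with a match, followed by that of Traf1, which has none.
Nfkb2, chr19:46304487-46304736, plus strand: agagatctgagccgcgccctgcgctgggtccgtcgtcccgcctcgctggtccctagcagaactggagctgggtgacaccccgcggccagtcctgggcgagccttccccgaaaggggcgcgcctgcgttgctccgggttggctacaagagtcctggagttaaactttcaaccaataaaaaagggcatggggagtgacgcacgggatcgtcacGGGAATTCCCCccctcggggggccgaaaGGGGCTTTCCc
Nfkbia, chr12:55492648-55492897, minus strand: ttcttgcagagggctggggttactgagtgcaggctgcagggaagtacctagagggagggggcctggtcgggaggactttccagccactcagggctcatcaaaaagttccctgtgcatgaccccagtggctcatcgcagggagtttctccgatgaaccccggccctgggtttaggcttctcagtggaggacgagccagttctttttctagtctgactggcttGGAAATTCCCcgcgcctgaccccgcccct
Nfkbie, chr17:45555450-45555699, plus strand: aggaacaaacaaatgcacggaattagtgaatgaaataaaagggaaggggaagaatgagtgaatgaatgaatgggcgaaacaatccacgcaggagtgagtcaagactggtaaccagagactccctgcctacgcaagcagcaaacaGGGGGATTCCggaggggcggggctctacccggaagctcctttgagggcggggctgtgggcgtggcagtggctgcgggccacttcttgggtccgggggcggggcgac
Tnfaip3, chr10:19015411-19015660, minus strand: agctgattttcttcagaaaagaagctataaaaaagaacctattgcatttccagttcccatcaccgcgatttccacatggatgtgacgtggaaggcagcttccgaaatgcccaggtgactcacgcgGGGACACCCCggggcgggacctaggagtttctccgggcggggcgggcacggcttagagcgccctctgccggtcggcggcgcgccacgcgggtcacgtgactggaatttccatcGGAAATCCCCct
Traf1, chr2:34961773-34962022, minus strand: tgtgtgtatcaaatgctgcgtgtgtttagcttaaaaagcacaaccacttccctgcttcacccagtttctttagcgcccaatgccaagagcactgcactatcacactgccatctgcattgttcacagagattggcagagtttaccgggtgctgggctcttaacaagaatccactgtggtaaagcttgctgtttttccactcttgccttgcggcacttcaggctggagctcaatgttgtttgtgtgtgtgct

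In Nfkb2 the match GGGAATTCCC reads the same on both strands and lies 39 to 30 bases before the start, where it overlaps GGAATTCCCC, shifted by 1 base, and GGGGCTTTCC ends 2 bases before the start. The windows of the other 2 Nfkb2 starts, not printed, hold a match each, GGAATGTCCC and GGGACTTTCC. Nfkbia, the gene of the best-known I-kappa-B, carries GGAAATTCCC 29 to 20 bases before its start. In Nfkbie the match is GGGGGATTCC, 106 to 97 bases before the start, and Tnfaip3 has GGGACACCCC at 125 to 116 and GGAAATCCCC at 12 to 3 bases before the start. The window of the other Tnfaip3 start, not printed, holds no match. No match was found in these windows of Birc3, Traf1 or Icam1, which says only that the letters are not in this stretch.

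**Figure D1:**
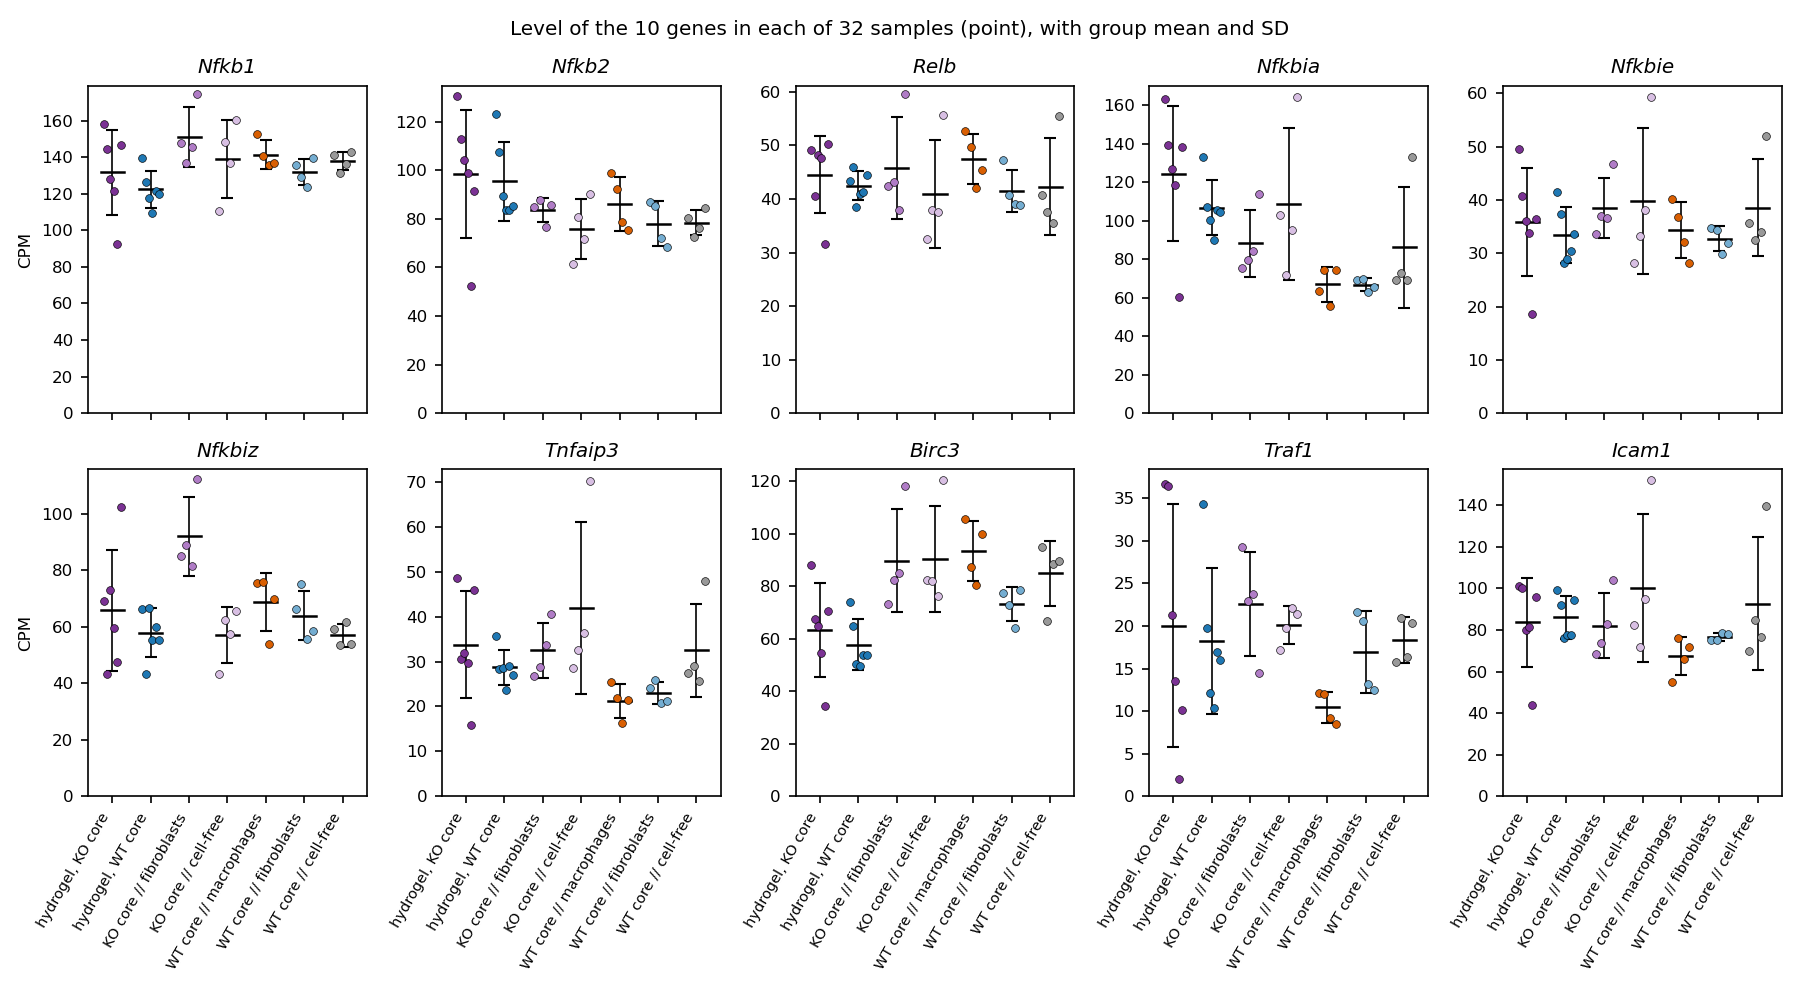
Level of each of the 10 genes (CPM, vertical axis from 0) in each of the 32 samples (points), by group, with the group mean (bar) and SD (whiskers). Relb spans group means of 40.9 to 47.4 CPM, while Traf1 reaches 2.06 CPM in a single hydrogel around a core labelled KO and is lowest on average in WT cores beside macrophages.

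Across the 7 groups the 10 genes differed in how far they ranged. The highest group mean was 1.16 times the lowest for Relb, 1.21 for Nfkbie, 1.24 for Nfkb1 and 1.30 for Nfkb2. It was 1.49 for Icam1, 1.61 for Nfkbiz, 1.62 for Birc3, 1.86 for Nfkbia, 1.97 for Tnfaip3 and 2.16 for Traf1. Over all samples the SD of the log2 level was 0.18 for Nfkb1 and 0.77 for Traf1, beside a median of 0.32 over 12954 expressed genes, so that Nfkb1 lay at the 17.0th percentile of the spread and Traf1 at the 88.8th. Relb (26.5), Nfkb2 (39.3) and Nfkbie (47.0) lay in the lower part of the genes by this percentile too, and Nfkbiz (51.9), Icam1 (52.5), Birc3 (61.1), Tnfaip3 (69.8) and Nfkbia (70.1) in the upper part.

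The 3 subunit genes were among the 4 with the lowest ratios of group means. Nfkb1, which encodes the precursor of the commonest DNA-binding subunit, ran between 92.8 CPM in a hydrogel and 175 CPM in a core. Its mean was highest in cores labelled KO beside fibroblasts (151 ± 16.4 CPM, SD, n = 4) and lowest in hydrogels around WT cores (122 ± 10.0 CPM, n = 6), and every group overlapped its neighbour in the order of means. Nfkb2, whose precursor is processed by the non-canonical arm of the pathway, averaged 98.5 ± 26.3 CPM in hydrogels around cores labelled KO and 95.5 ± 16.3 CPM in those around WT cores, above all core groups (76.0 to 86.3 CPM). Relb, the partner of the processed Nfkb2 product, averaged 47.4 ± 4.70 CPM in WT cores beside macrophages and 40.9 ± 10.2 CPM in cell-free cores labelled KO, the ends of its order. Neighbouring groups overlapped throughout for Nfkb2 and Relb too. Rela, the main activating subunit, ran similarly, at 44.8 to 64.7 CPM in hydrogels and 32.9 to 57.9 CPM in cores, and Rel, the subunit best known from lymphocytes, ran from 13.98 to 25.5 CPM in hydrogels and from 16.3 to 24.1 CPM in cores.

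Among the inhibitors the spread was wider and sat in particular samples. Nfkbia had group means between 66.8 ± 3.21 CPM in WT cores beside fibroblasts and 125 ± 34.9 CPM in hydrogels around cores labelled KO. Its values in cell-free cores were 103, 71.8, 95.3 and 165 CPM in the libraries labelled KO and 69.5, 73.1, 69.2 and 133 CPM in WT. In both genotypes the highest was replicate 4, and the titles give both samples the same run code. Tnfaip3, a ubiquitin-editing enzyme that shuts down signalling from TNF and IL-1 receptors, showed the same samples on top, with 28.5, 32.5, 36.3 and 70.1 CPM in cell-free cores labelled KO and 27.5, 28.9, 25.7 and 48.0 CPM in WT cell-free cores. Nfkbie, a further I-kappa-B, reached 59.4 CPM in the cell-free core labelled KO and 52.0 CPM in the WT cell-free core of replicate 4, against 28.1 to 38.2 CPM in the other cell-free cores. Tnf, the cytokine that drives the canonical arm, was also highest there, at 110 and 67.8 CPM, against 24.8 to 44.5 CPM in the other cell-free cores. Nfkbiz, a nuclear I-kappa-B that directs NF-kB to secondary genes, did not follow them. Its replicate 4 values in cell-free cores were 65.6 CPM in the library labelled KO and 53.8 CPM in WT. Its highest group was cores labelled KO beside fibroblasts (92.0 ± 13.9 CPM). No other top group of the 10 genes was free of overlap with the group next in order of means. It did overlap hydrogels around cores labelled KO, which came after that and reached 102.5 CPM.

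The direct targets each had a pattern of their own. Birc3, an inhibitor of apoptosis, was higher in the cores (group means 73.2 to 93.2 CPM) than in the hydrogels (63.2 ± 17.9 CPM around cores labelled KO and 57.7 ± 9.68 CPM around WT cores). Icam1, the endothelial and fibroblast adhesion molecule for leukocytes, was highest on average in cell-free cores, at 82.4, 71.8, 94.8 and 152 CPM in those labelled KO and 69.9, 84.6, 76.5 and 140 CPM in WT, again with replicate 4 on top. Traf1, an adaptor of TNF receptors, varied most in the hydrogels, where it ran from 2.06 to 36.7 CPM around cores labelled KO and from 10.4 to 34.3 CPM around WT cores.

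**Figure D2:**
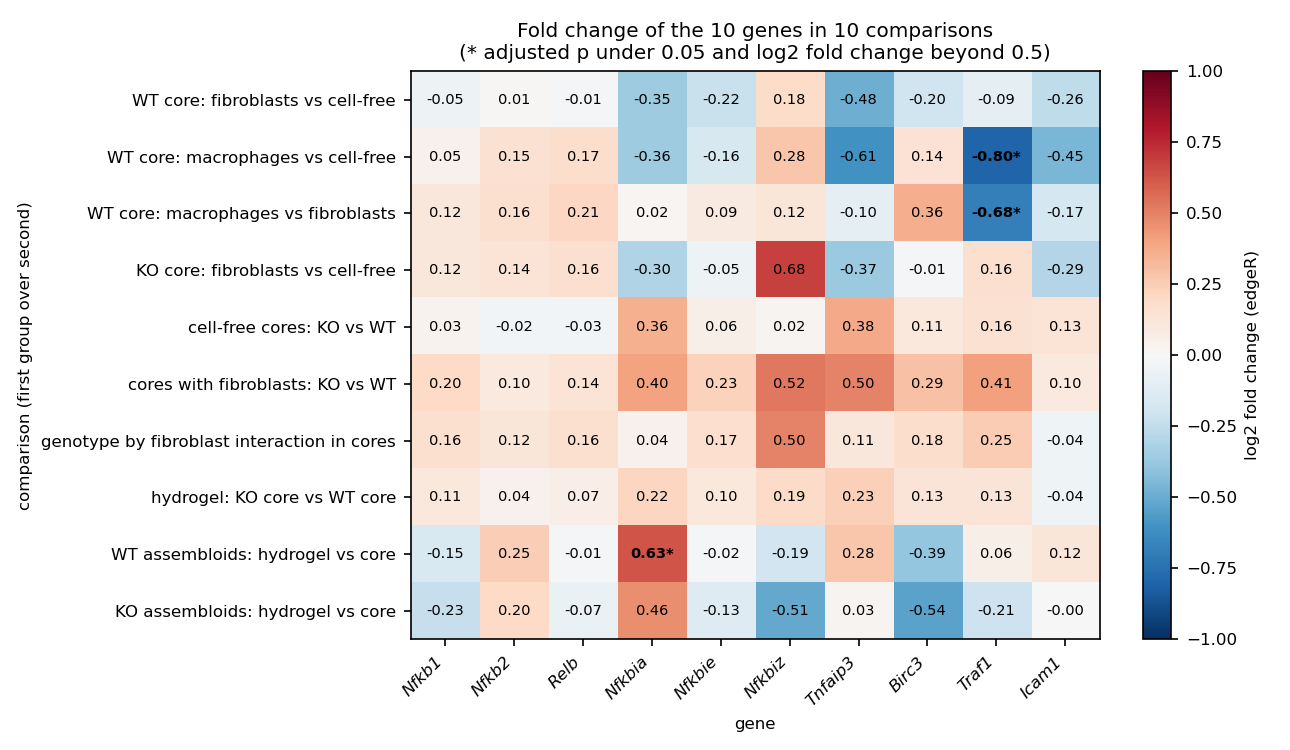
Log2 fold change (colour and printed value, edgeR) of the 10 genes (columns) in 10 comparisons (rows, first group over second, with the interaction as a difference of 2 differences). Stars mark an adjusted p under 0.05 together with a log2 fold change beyond 0.5, reached by Traf1 in both macrophage comparisons and by Nfkbia in WT hydrogels against WT cores.

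WT cores beside macrophages were set against WT cell-free cores to ask what extrinsic macrophages change in the core. The subunit genes did not pass the test: their log2 fold changes were 0.05 (SE 0.08) for Nfkb1, 0.15 (SE 0.10) for Nfkb2 and 0.17 (SE 0.14) for Relb, with adjusted p of 0.398 or more in edgeR's quasi-likelihood test. Traf1 fell, while 4.60% of all 16441 genes tested passed the same thresholds (adjusted p under 0.05 and a log2 fold change beyond 0.5). Its level was 12.1, 11.97, 9.18 and 8.54 CPM beside macrophages, against 15.8, 20.9, 16.4 and 20.4 CPM in cell-free cores. The 2 groups did not overlap, and the log2 fold change was -0.80 (SE 0.15, adjusted p = 0.0149). Tnfaip3 gave 25.4, 21.8, 16.3 and 21.5 CPM beside macrophages and 27.5, 28.9, 25.7 and 48.0 CPM in cell-free cores, which also did not overlap, but its log2 fold change of -0.61 (SE 0.21) had an adjusted p of 0.126. Groups that did not overlap in the lower direction were found for 10.3% of all genes tested. Nfkbia (-0.36), Icam1 (-0.45), Nfkbie (-0.16), Nfkbiz (0.28) and Birc3 (0.14) did not pass either. With each library left out in turn, Tnfaip3 ran from -0.70 to -0.335, Nfkbia from -0.455 to -0.05 and Icam1 from -0.57 to -0.17. Without replicate 4 of the cell-free cores 6 of the 10 genes were higher, with a median of 0.06. With all libraries it was 5 of 10, with a median of -0.06. The Traf1 call was lost without replicate 2 of the cell-free cores (adjusted p = 0.0521), without replicate 3 of the macrophage cores (0.0674), and when library totals replaced the TMM factors (-0.68, 0.0548).

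Other genes of the pathway were called in 4 of the 6 surrounding lists. Of 9 upstream ligands tested, Tnf fell to 5.48 ± 1.32 CPM beside macrophages, against 37.6 ± 20.3 CPM in cell-free cores (log2 fold change -2.77, SE 0.34, adjusted p = 0.0033). Il1b rose (4.22, SE 0.71, adjusted p = 0.0107), to 4.45, 0.894, 1.94 and 4.45 CPM beside macrophages, against 0.153, 0.265, 0.227 and 0 CPM in cell-free cores, so that the fold rests on few counts, and Il1a, the other IL-1 agonist, stood at -0.87 (SE 0.28, adjusted p = 0.108). Of 17 upstream receptors and their antagonists 3 fell and none rose, with Il1rn, the secreted IL-1 receptor antagonist, at -1.996 (SE 0.25), Cd40 at -1.69 (SE 0.23) and Tnfrsf11a, the receptor for RANK ligand, at -0.77 (SE 0.12). Of 24 other canonical targets tested 5 fell and 1 rose, beside a median of -0.32 over the list and 0.01 over all genes. The plasminogen activator Plau (-2.71, SE 0.27), the survival gene Bcl2l1 (-1.24, SE 0.11) and the chemokines Ccl5 (-2.97, SE 0.51) and Ccl2 (-1.46, SE 0.34) were among those that fell, and Cd83 rose (1.22, SE 0.29). None of the 5 other subunit and I-kappa-B genes and none of the 16 kinase genes passed, and of 20 adaptors, ubiquitin editors and other inhibitors Tnip3 alone did (-1.43, SE 0.29). The macrophage marker list had a median log2 fold change of -0.39, with 15 of its 20 genes lower and 5 higher. Of these 2 passed both thresholds, Itgam and Cd14, both lower. The part of this list in these results was not tested.

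**Figure D3:**
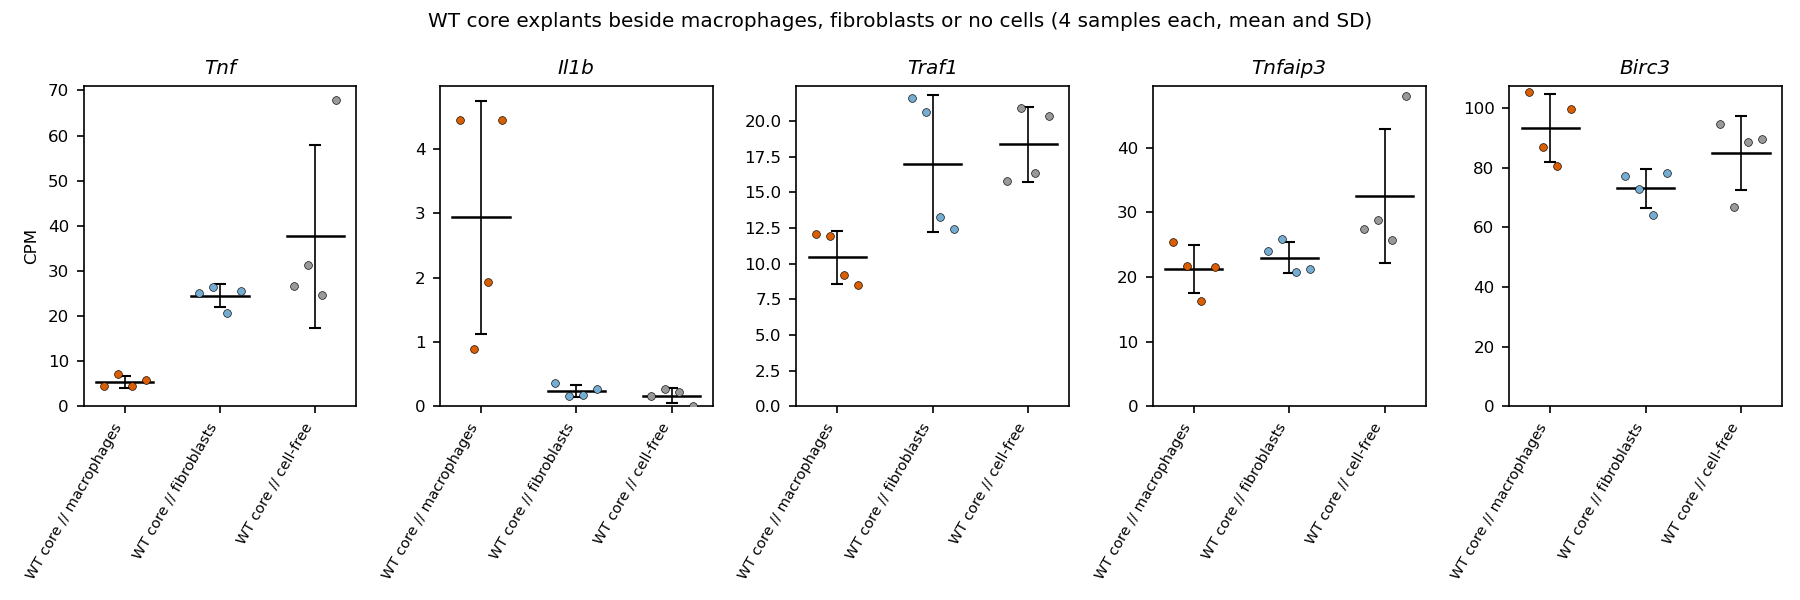
Level (CPM, vertical axes from 0) of Tnf, Il1b, Traf1, Tnfaip3 and Birc3 in WT cores beside macrophages, fibroblasts or cell-free hydrogels, 4 samples each (points), with group mean (bar) and SD (whiskers). Tnf lies between 4.43 and 7.24 CPM beside macrophages, below all 8 other WT cores, and Traf1 between 8.54 and 12.1 CPM.

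The same macrophage libraries were also set against WT cores beside fibroblasts. Of the 10 genes 7 were higher and 3 lower, where 5 were higher and 5 lower against cell-free cores. Traf1 was 12.1, 11.97, 9.18 and 8.54 CPM beside macrophages and 21.6, 20.7, 13.3 and 12.5 CPM beside fibroblasts, and fell by 0.68 on the log2 scale (SE 0.20, adjusted p = 0.0381), where 10.8% of 16370 genes tested passed. The call was lost without replicate 1 (adjusted p = 0.0989) or 2 (0.0929) of the fibroblast cores, without replicate 3 (0.091) or 4 (0.0521) of the macrophage cores, and with library totals (-0.49, 0.112). Birc3 gave 105, 87.1, 80.6 and 99.9 CPM beside macrophages and 77.4, 72.9, 64.1 and 78.4 CPM beside fibroblasts. These groups did not overlap, as was so in this direction for 11.5% of genes, and its log2 fold change of 0.36 (SE 0.10) had an adjusted p of 0.0328, under 0.05 as for 19.5% of genes, but stayed under the fold threshold. Relb (0.21, SE 0.09, adjusted p = 0.124) and the other 7 genes did not pass, Tnfaip3 (-0.10, SE 0.13) and Nfkbia (0.02, SE 0.10) among them. With library totals the median over all genes moved to 0.20, against 0.01 with TMM factors, and Birc3 passed both thresholds (0.56, adjusted p = 0.0101). That scaling also moved the share of called genes that were higher to 82.3%, against 49.0%, and 9 of the 10 genes were then higher beside macrophages, against 7. Around the 10, Tnf fell as well (-2.14, SE 0.16, adjusted p = 0.000333), and of 24 other canonical targets 8 fell and 1, Cd83, rose (1.66), with a median of -0.50. Plau (-2.16), Bcl2l1 (-0.93) and Ccl5 (-2.29) were among those that fell. Il1b (3.58, SE 0.56) rose and Il33, an alarmin of the IL-1 family, fell (-0.97, SE 0.15). Of 16 receptors and antagonists Tnfrsf1b rose (0.52) and 3 fell, which were Il1rn (-2.02), Cd40 (-1.01) and Il1rap (-0.52), and of 20 adaptors and other inhibitors Zc3h12a (0.81) and Nlrc5 (0.60) rose and Tnip3 fell (-0.68). Of the 20 macrophage markers 2 rose and 2 fell, and of the 14 fibroblast and tendon markers 2 fell and none rose (median -0.47), and their part in these results was not tested.

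WT cores beside fibroblasts gave no called difference in any of the 10 genes. In WT cores beside fibroblasts against WT cell-free cores, 2.61% of 16188 genes and 0 of the 10 passed the edgeR test, and DESeq2 called none either. A single gene of the 10 had an unadjusted p under 0.05, against 21.3% of all genes. It was Tnfaip3, at 24.0, 25.8, 20.7 and 21.3 CPM beside fibroblasts and 27.5, 28.9, 25.7 and 48.0 CPM in cell-free cores (log2 fold change -0.48, SE 0.18, adjusted p = 0.164). The ranges touched at 25.8 and 25.7 CPM, and without replicate 4 of the cell-free cores the difference shrank to -0.22. Of the 10 genes 8 were lower, with a median of -0.15 against -0.02 over all genes, and 6 of 10 without that library, with a median of -0.02. Around them Il33 rose (0.82, SE 0.18, adjusted p = 0.038), as did the matrix metalloproteinase Mmp9 (1.43, SE 0.35, adjusted p = 0.0487), and Cd40 fell (-0.65, SE 0.15, adjusted p = 0.0414). Tnf was 24.5 ± 2.58 CPM beside fibroblasts and 37.6 ± 20.3 CPM in cell-free cores (-0.60, SE 0.29, adjusted p = 0.257). In the same comparison 17 of the 20 macrophage markers were lower beside fibroblasts (median -0.39) and Csf1r (-0.61) and Mpeg1 (-0.50) fell, while 13 of the 14 fibroblast and tendon markers were higher (median 0.33) and Col3a1 (1.09) and Scx (0.94) rose. Their part in the values of the 10 genes was not tested.

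In cores labelled KO, Nfkbiz was the gene of the 10 with the largest difference between fibroblast and cell-free hydrogels. Its level was 85.0, 89.0, 81.5 and 112 CPM beside fibroblasts, against 43.3, 62.4, 57.3 and 65.6 CPM in cell-free cores. The groups did not overlap, as was so in this direction for 3.80% of 15965 genes tested. The log2 fold change was 0.68 (SE 0.15, unadjusted p = 0.000828), with an adjusted p of 0.0805 in the fit without a block and of 0.0188 with the replicate pairs as a block. The thresholds were passed by 0.432% of genes in the first fit, and none of the 10 genes was among them. DESeq2 (adjusted p = 0.00253) and a joint fit of all 5 core groups (0.00926) also called Nfkbiz, and with a library left out edgeR did so in 1 of 8 fits, without replicate 2 of the cell-free cores (0.0408). The other 9 genes lay between -0.37 (Tnfaip3, SE 0.26) and 0.16 (Traf1, SE 0.19). Bcl3, another I-kappa-B protein that acts in the nucleus, was 32.5, 33.3, 31.99 and 32.6 CPM beside fibroblasts and 13.8, 34.2, 20.6 and 22.3 CPM in cell-free cores. None of the 5 other subunit and I-kappa-B genes passed in this comparison.

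Between genotypes the cell-free cores gave no call. With edgeR 0% of 16065 genes passed (DESeq2 called 13 genes, none of the 10), and none of the 10 had an unadjusted p under 0.05, against 2.11% of all genes. Nfkbia (0.36, SE 0.28) and Tnfaip3 (0.38, SE 0.29) had the largest differences. Replicate 4 was the highest library for both genes in either genotype, and the direction depended on which was left out. Of the 10 genes 8 were higher in cores labelled KO with all libraries. Without replicate 4 of the cores labelled KO it was 3 of 10. Without replicate 4 of the WT cores it was 9 of 10, with a median of 0.17. The list of other canonical targets had 22 of 24 genes higher in cores labelled KO, with a median of 0.44 against 0.01 over all genes, and none passed.

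Beside fibroblasts all 10 genes were higher in cores labelled KO than in WT cores, with a median log2 fold change of 0.26, against 0.00 over all 16088 genes tested. The study's rule for this comparison was an unadjusted p under 0.05 and a log2 fold change beyond 0.5, which 2.44% of genes passed, and of the 10 only Nfkbiz did. Nfkbiz was 85.0, 89.0, 81.5 and 112 CPM in cores labelled KO and 66.3, 75.0, 55.8 and 58.5 CPM in WT cores (0.52, SE 0.12, unadjusted p = 0.00142, adjusted p = 0.457). Nfkbia was 75.6, 79.5, 84.5 and 114 CPM in cores labelled KO and 69.0, 70.0, 63.0 and 65.4 CPM in WT cores (0.40, SE 0.12, unadjusted p = 0.00704, adjusted p = 0.477). Tnfaip3 was 26.8, 28.7, 33.7 and 40.7 CPM in cores labelled KO and 24.0, 25.8, 20.7 and 21.3 CPM in WT cores (0.50, SE 0.13, unadjusted p = 0.00375, adjusted p = 0.457). These 3 were the genes whose groups did not overlap, as was so in this direction for 2.23% of all genes. Nfkb1 (0.20) and Nfkbie (0.23) also had an unadjusted p under 0.05, a level that 8.88% of all genes reached. Traf1 (0.41), Birc3 (0.29), Relb (0.14), Nfkb2 (0.10) and Icam1 (0.10) did not.

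With an adjusted p in place of the unadjusted one, 0% of genes passed with edgeR. Replicate 4 of the cores labelled KO was the highest of its group for 8 of the 10 genes, the exceptions being Nfkb2 and Traf1. Without it 8 of 10 genes were still higher, with a median of 0.13, and Nfkbiz stood at 0.42, under the fold threshold. Nfkbiz was also under it without replicate 3 (0.47) or 4 (0.49) of the WT cores. In the same direction and by the same rule, 5 of 24 other canonical targets were higher in cores labelled KO, among them the nitric oxide synthase Nos2 (1.54, SE 0.25), the chemokines Cxcl2 (1.32, SE 0.25) and Cxcl1 (1.22, SE 0.39) and the early response gene Ier3 (0.77, SE 0.22). Il6 passed that rule too (1.30, SE 0.39). Of the fibroblast and tendon markers 13 of 14 were lower in cores labelled KO (median -0.20), with Dpt past the rule (-1.02, SE 0.34). Of the 20 macrophage markers 8 were higher and 12 lower (median -0.04), with Cx3cr1 past the rule (1.38, SE 0.42). The part of these markers in the values of the 10 genes was not tested.

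Whether the response to fibroblasts differed between genotypes was tested as an interaction over the 16 cores. With edgeR 0% of genes passed (DESeq2 called 1 gene, none of the 10). Nfkbiz had a difference of 0.50 on the log2 scale (SE 0.18, unadjusted p = 0.0145, adjusted p = 0.985) and was the only gene of the 10 with an unadjusted p under 0.05, against 3.01% of 16772 genes tested. Left out in turn, the 16 libraries gave 0.39 to 0.58.

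In the hydrogels, a core labelled KO and a WT core were surrounded by cells of the same kind. None of the 10 genes passed the study's rule (unadjusted p under 0.05 and log2 fold change beyond 0.5), which 0.755% of 15227 genes did, and none had an unadjusted p under 0.05, as 2.65% of genes did. Nfkbia ranged from 60.2 CPM over a median of 133 to 163 CPM around cores labelled KO and from 90.0 over 105 to 133 CPM around WT cores (log2 fold change 0.22, SE 0.18). Nfkbiz ranged from 43.3 over 64.3 to 103 CPM around cores labelled KO and from 43.5 over 57.7 to 66.5 CPM around WT cores (0.19, SE 0.19). Tnfaip3 ranged from 15.97 over 31.2 to 48.6 CPM around cores labelled KO and from 23.7 over 28.5 to 35.7 CPM around WT cores (0.23, SE 0.21). The groups overlapped for all 10 genes. Of the 10 genes 9 were higher around cores labelled KO, with a median of 0.12 against -0.01 over all genes. Around them 4 of 24 other canonical targets passed the rule, all higher around cores labelled KO, which were the acute-phase gene Saa3 (0.89, SE 0.26), Cxcl2 (1.66, SE 0.49), Ptgs2 (0.79, SE 0.26) and Ier3 (0.65, SE 0.23). The ligand Il1a (1.23, SE 0.50) and Il6 (1.03, SE 0.44) also did, and every adjusted p was 1. The fibroblast marker Dpt passed in the other direction (-0.68, SE 0.24).

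A single library set much of this spread. Replicate 5 of the hydrogels around cores labelled KO was the lowest of all 12 hydrogels for 9 of the 10 genes, with Nfkbiz the exception, and held 2.06 CPM of Traf1, 18.5 CPM of Nfkbie, 34.2 CPM of Birc3 and 43.8 CPM of Icam1. Its macrophage marker sum was 2482 CPM, against 11300 CPM or more in the other 11, with Lyz2 at 1515 CPM against 6604 CPM or more. Without it all 10 genes were higher around cores labelled KO, with a median of 0.25, and Nfkbia (0.37, unadjusted p = 0.00352), Tnfaip3 (0.39, 0.0246), Nfkb1 (0.19, 0.0327) and Relb (0.16, 0.0428) had an unadjusted p under 0.05, though none reached the fold threshold and the adjusted p was 0.878. Over all genes, 304 passed the study's rule without this library, against 115 with it. The share of all genes with an unadjusted p under 0.05 without it is not given here. The part of the cell mixture in the values of the 10 genes was not tested.

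**Figure D4:**
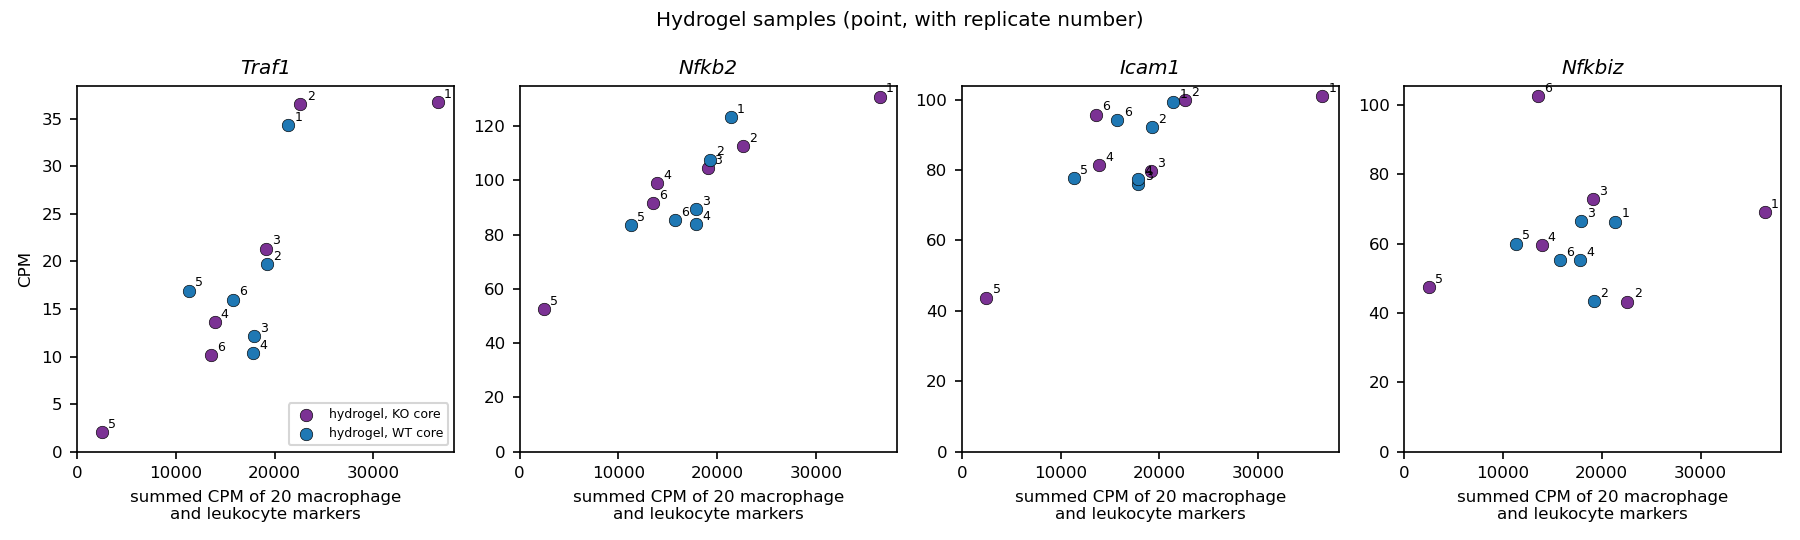
Level of Traf1, Nfkb2, Icam1 and Nfkbiz (CPM, vertical axes) against the summed level of 20 macrophage and leukocyte markers (CPM, horizontal axes) in the 12 hydrogel samples, numbered by replicate and coloured by the label of the core. Replicates 5 and 1 around cores labelled KO, at 2482 and 36490 CPM, lie at the ends of the horizontal axis.

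Across the 12 hydrogels the log2 levels of 9 of the 10 genes went with the log2 macrophage marker sum, with Pearson's r between 0.71 (Relb) and 0.93 (Nfkb2), while Nfkbiz gave 0.21. Without replicates 5 and 1 around cores labelled KO, the 2 samples farthest from the median sum, r was 0.70 for Nfkb2, 0.62 for Traf1 and 0.49 for Nfkbie. It ran from -0.40 (Nfkbiz) to 0.41 (Birc3) for the other 7. Leaving out the ends of the range can itself lower r, so these values cannot tell whether the relation rests on those samples. The points share mice, seeded cells and library preparation, and the values are a description.

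Hydrogels were then set against the cores of the same assembloids. In WT assembloids 42.8% of 16037 genes passed an adjusted p of 0.05 and a log2 fold change beyond 0.5, and of the 10 genes Nfkbia did. It ranged from 90.0 over a median of 105 to 133 CPM in the hydrogels, against 69.0, 70.0, 63.0 and 65.4 CPM in the cores. All 6 hydrogels lay above all 4 cores, as was so for 28.6% of genes, and Nfkbia was 0.63 higher on the log2 scale (SE 0.09, adjusted p = 7.13e-05). Birc3 (-0.39, SE 0.11, adjusted p = 0.00793) was lower and Tnfaip3 (0.28, SE 0.10, adjusted p = 0.0325) higher in the hydrogels, both under the fold threshold and within the 69.3% of genes with an adjusted p under 0.05. The 3 subunits lay between -0.15 (Nfkb1, SE 0.07) and 0.25 (Nfkb2, SE 0.12). The share of 1 in 10 called stands below the 42.8% of all genes. The other lists of the pathway varied: none of the 5 other subunits and I-kappa-B proteins passed, while of 16 kinase genes Ikbkg (0.62) and Ripk2 (1.00) rose and Ikbke (-0.61) and Map3k14 (-0.60) fell, and of 20 adaptors and other inhibitors Zc3h12a (0.56) rose and Birc2 (-0.60) and Tnip2 (-0.70) fell. Of 8 ligands Tnfsf11, the RANK ligand, and Il18 rose (2.06 and 0.83) and Il33 and Il1a fell (-0.90 and -0.85). Of 16 upstream receptors and antagonists 7 rose and none fell, with Tnfrsf11b, the decoy receptor for RANK ligand, at 2.35 (SE 0.21), and of 24 other canonical targets 13 rose and 3 fell, Ptgs2 (2.59, SE 0.23) and Ccl2 (1.47, SE 0.12) among those that rose. Of the 20 macrophage markers 12 rose and 1 fell, and of the 14 fibroblast and tendon markers 1 rose and 7 fell in the same comparison, and their part in the result was not tested.

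In assembloids with a core labelled KO, 41.6% of 16084 genes passed and none of the 10 did. Nfkbia ranged from 60.2 over 133 to 163 CPM in the hydrogels, against 75.6, 79.5, 84.5 and 114 CPM in the cores (log2 fold change 0.46, SE 0.23, adjusted p = 0.116). A further fit took the hydrogel and core with the same run code and N number as a block. In it the 2 hydrogels with no sequenced core partner add nothing to the difference, and Nfkbia was 0.55 higher (adjusted p = 0.00146). In the fit with no block, Nfkbia was 0.62 higher without replicate 5 of the hydrogels (0.00264) and 0.65 higher without replicate 4 of the cores (0.0406). Nfkbiz (-0.51, SE 0.22, adjusted p = 0.0667) and Birc3 (-0.54, SE 0.22, adjusted p = 0.062) were lower in the hydrogels and past the fold threshold alone. Without replicate 6 of the hydrogels, the highest for Nfkbiz at 103 CPM, Nfkbiz passed both thresholds (-0.65, adjusted p = 0.00773), and Birc3 did without replicate 1 (-0.62, 0.0218). Of 17 upstream receptors and antagonists 6 rose in the hydrogels and none fell, with Tnfrsf11b (2.17, SE 0.30) and Tnfrsf12a (1.66, SE 0.19) among them. Of 24 other canonical targets 6 rose and 2 fell, the complement genes C3 (-1.28, SE 0.17) and Cfb (-1.69, SE 0.34) being those that fell and Ptgs2 (2.41, SE 0.39) and Ptges (1.30, SE 0.28) among those that rose. Of 16 kinase genes Ikbkg (0.74) and Ripk2 (0.90) rose and Map3k14 (-0.84) and Ikbke (-0.71) fell, of 20 adaptors and other inhibitors Traf6 (-0.55) and Tnip2 (-0.76) fell, and of 10 ligands Il18 (1.06) and Tnfsf11 (1.79) rose. Of the 20 macrophage markers 18 were higher in the hydrogels (median 0.55), of which none passed, and Cd163 fell. Of the 14 fibroblast and tendon markers 1 rose and 5 fell. The part of these markers in the result was not tested. Whether the hydrogel and core difference itself depended on the label was not tested.

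**Figure D5:**
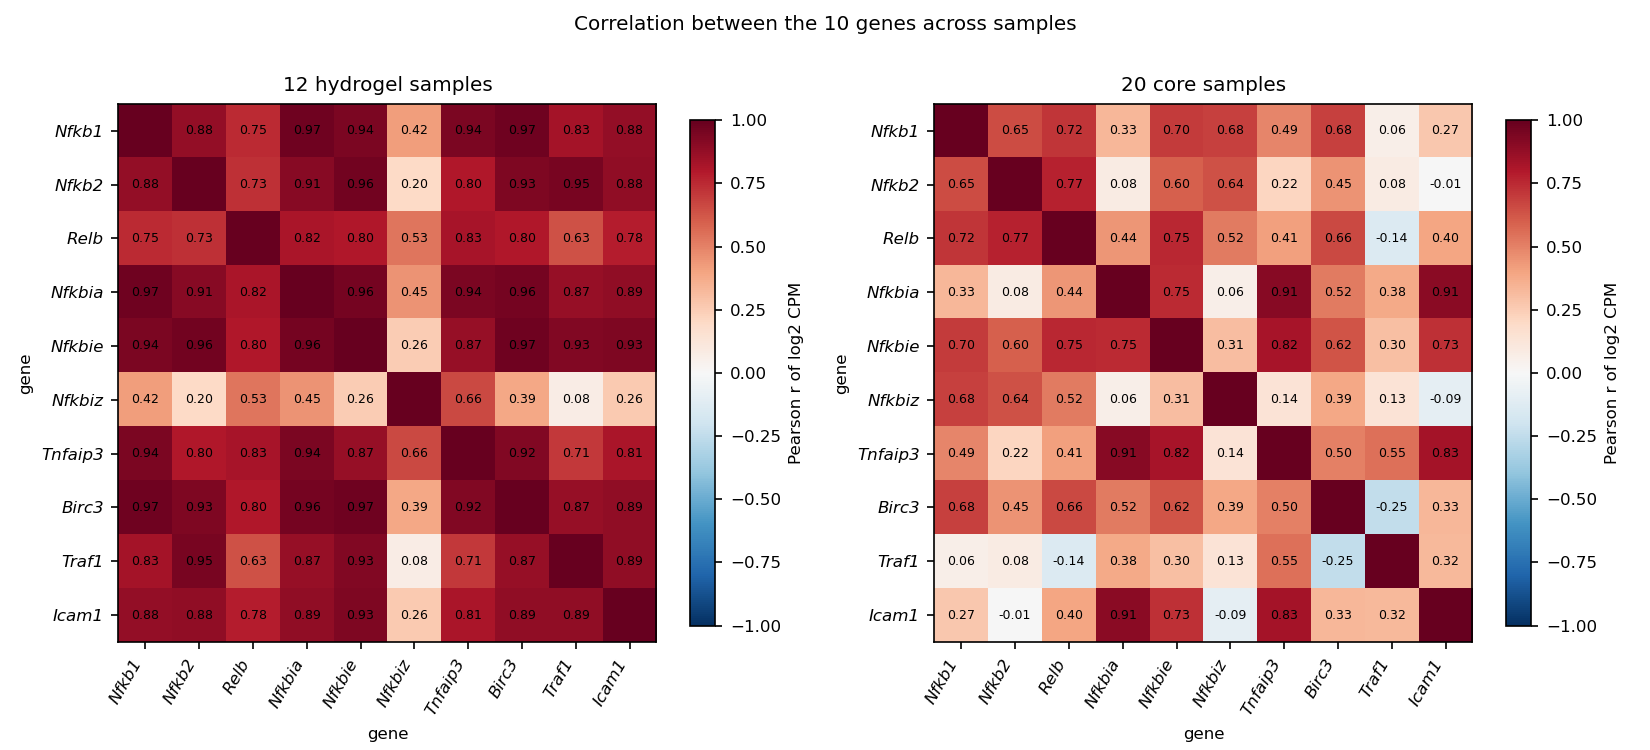
Pearson's r between the log2 CPM of each pair of the 10 genes over the 12 hydrogel samples (left) and the 20 core samples (right), printed in each cell. The median of the 45 pairs is 0.87 in hydrogels and 0.45 in cores, with Nfkbia and Tnfaip3 at 0.91 in cores.

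The 10 genes went together more tightly in hydrogels than in cores. Over the 12 hydrogels the median r of the 45 pairs was 0.87, and 30 pairs exceeded 0.8. The pair with the highest r was Nfkbie and Birc3 (0.975) and that with the lowest was Nfkbiz and Traf1 (0.08). Without replicate 5 around a core labelled KO the median was 0.67. Over the 20 cores the median was 0.45, 4 pairs exceeded 0.8 and 4 were negative. Nfkbia and Tnfaip3 went together most (0.91), and Birc3 and Traf1 least (-0.25). The subunits went together in the cores, at 0.65 (Nfkb1 and Nfkb2), 0.72 (Nfkb1 and Relb) and 0.77 (Nfkb2 and Relb). They went as closely with some other genes, at 0.75 for Relb and Nfkbie and 0.68 for Nfkb1 and Birc3. With others they did not, as at 0.08 for Nfkb2 and Nfkbia. In the cores Tnfaip3 (0.80), Icam1 (0.77), Nfkbia (0.74) and Traf1 (0.72) went with Tnf, and stayed between 0.61 and 0.83 without the 2 samples with the most distant Tnf level, replicates 1 and 3 beside macrophages. For Nfkb2 (-0.20), Nfkbiz (-0.07) and Relb (0.00) r was near 0 or below it, and for Nfkb1 (0.13) and Birc3 (0.05) it was low as well, at 0.272 or less for these 5 without the same samples. Nfkbie gave 0.49, and 0.66 without them. The cell-free cores of replicate 4, the highest of the cell-free cores for Tnf, were kept throughout. The samples share mice, controls and cell mixtures, so these values describe the data set and carry no test.

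The genes whose level was most like the mean of the 10 over the cores, each centred and scaled, were Stx11 (r = 0.89), Rnd1 (0.88), Malt1 (0.86), Tnip1 (0.85), Rfx5 (0.83) and Ereg (0.81), of 12051 genes searched. Malt1 is a protease of the complex that activates the I-kappa-B kinases, and Tnip1 a partner of the Tnfaip3 product. Over the hydrogels they were Clec4e (0.96), Slc9a3r1 (0.96), Dram1 (0.96), Acod1 (0.96), Adora2b (0.96) and Tnfrsf1b (0.96), of 11986 genes. Clec4e is a receptor of myeloid cells, Acod1 the itaconate-producing enzyme of activated macrophages, and Tnfrsf1b a receptor for TNF.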

How the data were processed

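Total RNA of core explants and hydrogels was depleted of ribosomal RNA and sequenced from stranded libraries. The authors estimated transcript abundance with kallisto (version 0.46.1) and deposited unnormalized estimated counts, rounded to integers, for 25700 genes in each of 32 samples. The submitters' notes name GRCm39, and the annotation release was not given in the sources used here. Gene symbols (25587 genes) came from a GRCm38 annotation, used for names only, and promoter sequences from RefSeq (GRCm38.p6).

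After filterByExpr and TMM scaling, each comparison was fitted on its own groups with no block by the quasi-likelihood test of edgeR (glmQLFTest, version 4.0.16, in R 4.3.3). The study itself used DESeq2, which was run as an alternative (version 1.42.0). Fold changes are log2 values of the first group over the second, with a standard error of the absolute fold change over the square root of F. P-values were adjusted by Benjamini-Hochberg over all genes tested. Calls required an adjusted p under 0.05 and a log2 fold change beyond 0.5, or an unadjusted p in the genotype comparisons beside fibroblasts and of hydrogels, as in the study. Log2 CPM used a prior count of 2. The procedure was tested on simulated data for WT cores beside fibroblasts against cell-free cores, among 16025 genes. Recovery was counted at an adjusted p under 0.05, with no fold threshold. It was 39% of genes changed by a log2 fold of 0.5 and 84% of those changed by 1. Recovery under both thresholds was not counted.

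The total count per sample (20.4 to 59.9 M) limits precision through counting error only for low genes such as Il1b. The 10 genes and the pathway and marker lists were chosen with earlier results of these data known. The rule for named genes took all 10 genes, list genes past a comparison's thresholds (up to 4 per list by lowest p), Tnf, Il1a, Il1b, Rela, Rel, Il6 and the 6 genes most like the mean of the 10. The text gives those that bear on a comparison, not each in every one. Bcl3, Lyz2, Cd83 against cell-free cores and some marker genes were chosen after their values were seen. Groups came from the sample labels.

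Replicate numbers of cores follow a run code and an N number (N1 or N2) in the titles. Same-numbered samples deviated together (every pair's correlation over 0.1) in WT cores (0.20 to 0.57 for fibroblasts and cell-free, 0.23 to 0.42 for macrophages and cell-free, 0.25 to 0.47 for macrophages and fibroblasts). They also did in cores labelled KO (0.23 to 0.48) and between hydrogels (0.35 to 0.69). So did a hydrogel and a core with the same run code and N number (0.32 to 0.43 in WT, 0.34 to 0.49 in KO). Same-numbered samples did not between genotypes in cell-free cores (-0.10 to 0.55) or cores beside fibroblasts (-0.23 to 0.61). The labels do not say that samples of a number are independent cultures, so p-values measure the spread between these samples. Alternatives were other scalings, filters, thresholds, blocks and fits, and each library left out in turn.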

Additional observations from a re-analysis of the deposited data

Results flagged for a closer look

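Of 70 sets of samples (10 genes in 7 groups) 5 held a sample far from the others of its group by Dixon's criterion, where chance gives 3.5. Replicate 4 of the WT cell-free cores stood above the other 3 for Nfkbia (133.3 CPM), Nfkbie (52.04 CPM) and Tnfaip3 (47.98 CPM), and replicate 4 of the cell-free cores labelled KO did for Birc3 (120.2 CPM). Replicate 5 of the hydrogels around cores labelled KO stood below the other 5 for Icam1 (43.76 CPM).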

How the results depend on the processing

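Of 1930 alternative values for the 10 genes in 10 comparisons, 1887 kept their direction where called and their side of the thresholds, 13 lost a call, 30 gained one and none reversed. Among the 10 genes, the number called for WT macrophage against cell-free cores was 1, and 0 with library totals, 2 with an unadjusted p and 0 to 1 with a library left out. For WT macrophage against fibroblast cores it was 1, and 2 with no fold threshold and 0 to 1 with a library left out. For fibroblast against cell-free cores labelled KO it was 0, and 1 with DESeq2, with no filter, with an unadjusted p, with the run code as a block, with the replicate block and with all 5 core groups in the fit, and 0 to 1 with a library left out. For cores labelled KO against WT cores beside fibroblasts it was 1, and 2 with library totals, 0 with an adjusted p with or without the fold threshold, and 0 to 3 with a library left out. For WT hydrogels against cores it was 1, and 3 with no fold threshold. For hydrogels against cores labelled KO it was 0, and 2 with library totals, 1 with no filter, 1 with at least 10 counts in every sample, 2 with an unadjusted p, 1 with the replicate block and 0 to 1 with a library left out. The cause was not tested.

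The replicate block changed no other call of the 10 genes. Where the numbers do not pair the samples, it left 0 of the 10 called between genotypes in cell-free cores and 1 beside fibroblasts, the counts without it. Counts over all genes moved more. Fibroblast against cell-free cores gave 423 genes in WT (774 with DESeq2, 49 to 640 with a library left out) and 69 in cores labelled KO (502 with DESeq2, 408 with the replicate block, 4 to 497 with a library left out). WT macrophage cores gave 757 genes against cell-free cores (1149 with DESeq2, 291 to 1055) and 1766 against fibroblast cores (2702 with library totals, 1006 to 2523), and hydrogels around cores labelled KO gave 115 (212 with the replicate block, 304 without replicate 5).

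The median correlation between the 10 genes, with each library left out in turn, an alternative added after seeing the data, was 0.37 to 0.52 over cores and 0.67 to 0.91 over hydrogels.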
